A study of Mus musculus with 88 samples.

Results

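Wild-type (WT) mouse embryonic stem cells (ESCs) driven toward lateral mesoderm were compared at 48 h and 24 h of differentiation, with 2 bulk RNA libraries at each time. These are 4 of the 88 samples of a study of Polycomb Repressive Complex 2 (PRC2), which methylates histone H3 at lysine 27, in lineage choice. They were chosen by their labels alone, as the WT libraries in lateral mesoderm medium at 48 h and the WT libraries in mid primitive streak medium at 24 h. The WT titles name the line E14, and the cells were grown as a monolayer in serum and leukemia inhibitory factor (LIF) before differentiation. No engineered allele or drug is named in the WT labels. The null titles carry E14 too, and the methods name background-matched WT lines for bulk RNA, so the WT line is not certain. The mid primitive streak medium held Activin A, BMP4, CHIR99021 (a GSK3 inhibitor that activates Wnt signaling), and FGF2. In the lateral mesoderm medium, Activin A, CHIR99021, and FGF2 were gone, BMP4 was kept, and A-83-01, which blocks the type I receptors of Activin, Nodal, and TGF-beta, was added. The labels call the later harvest 48 h, whereas the written protocol can be read as giving the second medium for another 48 h, so the hours are used here as labels. The comparison libraries used below are undifferentiated (UD) and 5 h WT cells of the same mesoderm series, WT cells of an endoderm series, and, at 24 h and 48 h of mesoderm, Mtf2 null cells and the libraries labelled Jarid2 null, with 2 libraries per group.

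The authors describe the duplicates as technical, and all WT libraries carry the name of 1 cell line, so the p-values measure the spread between libraries only. The 4 libraries held 11242721 to 13915846 counts, within the 9111880 to 16898264 counts of the 24 mesoderm libraries. Levels are given as CPM, the counts of a gene scaled to a common library total after TMM normalization, which compares libraries and not genes of different length, and the values of a pair are given in the order replicate 1, replicate 2. In the 4 libraries, 5 abundant noncoding genes took 21.3% to 22.5% of the counts at 24 h and 18.6% to 20.6% at 48 h. By chi-square per degree of freedom, the 48 h duplicates differed most among the pairs of the 12 mesoderm groups, at 18.4. The 24 h duplicates differed least, at 3.26. By the correlation of log CPM, the UD pair labelled Jarid2 null was the least alike, at 0.9761 against 0.9779 for WT 48 h. In bulk RNA, fewer cells of a type and less RNA per cell cannot be told apart.

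As background, Nodal and Activin signal through Smad2 and Smad3 and switch on their own secreted inhibitors Lefty1 and Lefty2, which form a negative feedback loop. Canonical Wnt signaling stabilizes beta-catenin, which activates genes together with TCF/LEF factors, among them Axin2, Sp5, and T (Brachyury). In the gastrulating embryo these pathways induce the primitive streak, from which mesoderm and endoderm leave. BMP signals through Smad1, Smad5, and Smad9, activates the Id genes and Msx2, and patterns ventral and lateral mesoderm, amnion, and surface ectoderm.

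The start-site windows of 4 genes from RefSeq (GRCm38.p6, 250 bases before to 50 bases after the start site) are shown as examples. These genes are among the most changed in each direction. Sp5 and T are Wnt target genes that were lower at 48 h, and Gata3 and Id2 are BMP-responsive genes that were higher at 48 h. Capitals mark the TCF/LEF core CTTTGA in the first pair and the GC-rich SMAD element GGCGCC in the second pair, searched on both strands, with each line printed 5′ to 3′ along the gene. The windows are chr2:70474673-70474972 (plus strand) for Sp5, chr17:8434173-8434472 (plus strand) for T, chr2:9878551-9878850 (minus strand) for Gata3, and chr12:25096043-25096342 (minus strand) for Id2. 
Sp5: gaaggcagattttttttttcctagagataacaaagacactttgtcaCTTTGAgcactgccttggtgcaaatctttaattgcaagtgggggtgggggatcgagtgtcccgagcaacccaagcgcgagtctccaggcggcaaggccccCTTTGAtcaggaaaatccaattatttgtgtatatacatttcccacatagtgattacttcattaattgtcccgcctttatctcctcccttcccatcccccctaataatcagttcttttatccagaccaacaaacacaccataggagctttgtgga
T: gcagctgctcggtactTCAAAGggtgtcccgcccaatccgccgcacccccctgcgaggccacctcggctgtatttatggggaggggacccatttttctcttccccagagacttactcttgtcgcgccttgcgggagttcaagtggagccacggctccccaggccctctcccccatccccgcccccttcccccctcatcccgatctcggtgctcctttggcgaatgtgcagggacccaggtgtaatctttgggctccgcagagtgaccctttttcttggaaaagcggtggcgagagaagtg
Gata3: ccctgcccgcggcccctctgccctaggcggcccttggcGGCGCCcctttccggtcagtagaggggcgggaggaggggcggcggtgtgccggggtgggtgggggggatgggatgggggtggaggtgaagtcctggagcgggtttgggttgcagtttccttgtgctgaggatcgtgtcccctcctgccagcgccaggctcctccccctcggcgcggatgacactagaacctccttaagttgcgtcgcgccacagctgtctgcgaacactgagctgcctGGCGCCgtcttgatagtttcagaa
Id2: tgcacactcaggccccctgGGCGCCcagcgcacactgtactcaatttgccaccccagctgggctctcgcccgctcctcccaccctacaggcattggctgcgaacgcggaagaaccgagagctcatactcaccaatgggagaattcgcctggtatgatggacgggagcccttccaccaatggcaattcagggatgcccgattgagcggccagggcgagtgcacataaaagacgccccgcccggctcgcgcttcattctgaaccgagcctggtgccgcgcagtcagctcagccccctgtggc
In T the capitals read TCAAAG because the match lies on the opposite strand. Such matches are common and describe letters, not binding sites. Among other Wnt pathway genes called lower, the windows of Axin2, Cdx2, Fzd10, Nkd1, and Wnt5b held no CTTTGA. Among other BMP pathway genes called higher, the windows of Id3, Msx2, Gata2, Tfap2a, and Smad6 held no GGCGCC. The 4 printed windows are therefore not typical of these genes. CTTTGA was present in 14.9% of the windows of 228 genes called lower, 13.8% of the windows of 326 genes called higher, and 12.1% of the windows of all 11861 tested genes. GGCGCC was present in 27.6%, 23.3%, and 20.8% of the same windows. These shares were not tested against each other. Of the 139 called genes in the gene lists and among the most changed genes described below, 93 had a window.

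A gene was called when its Benjamini-Hochberg adjusted p was under 0.001 and its log2 fold change was above 1 in size (a 2-fold change), in edgeR's quasi-likelihood test across all 24 mesoderm libraries. Of 18361 tested genes, 763 (4.16%) were called between 24 h and 48 h, of which 443 (2.41%) were higher and 320 (1.74%) were lower at 48 h. The called genes had a median absolute log2 fold change of 1.73, and 68 were more than 8-fold higher and 43 more than 8-fold lower. At an adjusted p under 0.05 and no fold limit, 4044 genes (22%) passed, with 1749 (9.53%) higher and 2295 (12.5%) lower. The median log2 fold change over all tested genes was -0.01, and upper quartile scaling moved it to 0.08. With that scaling 65.8% of the calls were higher, against 58.1% in the main fit. In every called gene both 48 h libraries lay outside the range of the 24 h libraries. The calls rest on these same libraries, so this separation is not further evidence for them. Its share over all tested genes is not given. The same holds for single genes described below as separate. When the spread was estimated from the 4 WT libraries alone, 174 genes were called.

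**Figure D1:**
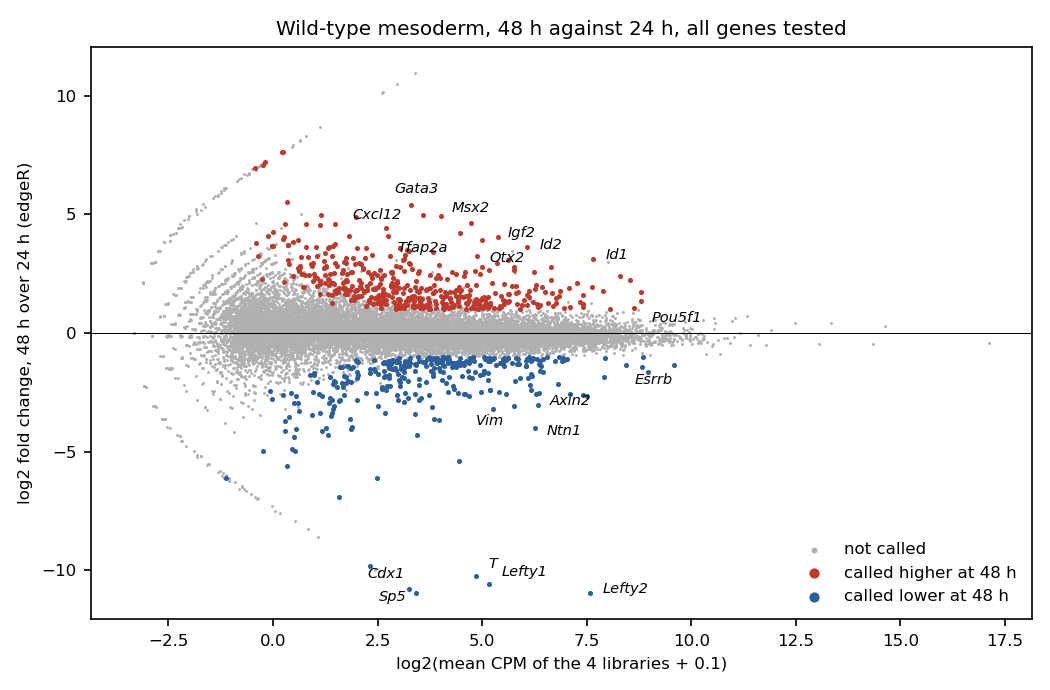
Log2 fold change (48 h over 24 h, vertical axis) against the log2 mean CPM of the 4 WT libraries (horizontal axis) for the 18361 tested genes. Red points are the 443 genes called higher, blue points the 320 genes called lower, and grey points all other genes, with labels on 18 genes named in the text. Lefty2, Sp5, Cdx1, Lefty1, and T lie far below the other labelled genes, where the fitted values of Sp5, Cdx1, Lefty1, and T rest on 0 or 1 count at 48 h.

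Genes were then read in 39 lists of pathways and cell types and among the 15 most changed genes in each direction. Of these 677 genes, 139 were called, 80 higher and 59 lower. All 139 kept their direction when each of the 4 libraries was left out, and 94 of them stayed called each time. With the spread estimated from the 4 WT libraries alone, 67 of the 139 were called, and the calls went from 16 to 6 in the Wnt list, from 12 to 5 in the surface ectoderm and trophoblast list, from 9 to 3 in the formative and primed list, and from 6 to 1 in both the neural and the FGF list. Direction also held for all 763 called genes under every alternative scaling, test, and filter that was tried.

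In the Nodal and Activin pathway, the secreted inhibitors fell to near the limit of detection. Of 26 genes of the pathway, 20 were tested and 6 were called, all lower, and the median log2 fold change was -0.25. Lefty2, a secreted Nodal inhibitor and Nodal target (chr1:180893108-180899103), was at 391 and 368 CPM at 24 h and at 0.0654 and 0.326 CPM at 48 h. This is a log2 fold change of -10.95 ± 0.43 (adjusted p = 1.43e-12), and the times did not overlap. Here and below, the value after ± is the size of the log2 change divided by the square root of the F statistic. It is an approximate standard error worked back from the test, and it is imprecise where counts are low. Lefty2 had 5 counts at 48 h against 9373 at 24 h. Lefty1, its neighbor on chromosome 1, was at 72.6 and 71.6 CPM and then at 0.0654 and 0 CPM. A single count remained at 48 h against 1784 at 24 h, a ratio of 1990 with a 95% counting interval of 356 to 78400. The 2 Lefty genes are closely related in sequence, and reads that fit both could have been split between them.

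Intracellular feedback inhibitors of the pathway fell less far. Smad7, which blocks type I receptors of the TGF-beta family, was at 183 and 187 CPM at 24 h and at 34.4 and 48.3 CPM at 48 h, 4.49-fold lower (log2 -2.17 ± 0.15, adjusted p = 2.26e-09). Pmepa1, which sequesters receptor-activated Smads, was at 19 and 21 CPM and then at 2.75 and 3.18 CPM, 6.77-fold lower (adjusted p = 2.08e-10). For both genes the times were well apart. The ligand Nodal itself, which also feeds its own expression, was at 65.8 and 66.3 CPM and then at 34.8 and 28.8 CPM, 2.07-fold lower (adjusted p = 5.82e-06). Nodal sits just past the fold limit and was not called without 48 h replicate 2.

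The receptors and transducers showed no such fall. Smad2 was at 44.7 and 47.9 CPM at 24 h and 41.7 and 42.3 CPM at 48 h (log2 -0.14 ± 0.11, adjusted p = 0.417), and Smad4, the partner of all receptor-activated Smads, was at 75.1 and 71.6 CPM and then 69.9 and 67.9 CPM. The type I receptor gene Acvr1b was at 55.9 and 49.6 CPM and then 38.4 and 43.5 CPM (log2 -0.37 ± 0.12, adjusted p = 0.0401), a difference that did not reach the fold limit. Tdgf1, the Nodal co-receptor, was at 128 and 135 CPM at 24 h and overlapped that range at 48 h, with 147 and 84.8 CPM.

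Several Wnt target genes, among them the streak factor T, were lower at 48 h. Of 45 Wnt pathway genes, 40 were tested, 11 were called lower and 5 higher, with a median log2 fold change of -0.23. Without 1 library the number of calls was 10 to 12 in place of 16, lowest without either 24 h library or without 48 h replicate 2. Axin2, which is both a beta-catenin target and a part of its destruction complex (chr11:108920349-108950783), was at 139 and 146 CPM at 24 h and at 17.9 and 17 CPM at 48 h, 8.18-fold lower (log2 -3.03 ± 0.12, adjusted p = 1.43e-12). Its 48 h level was close to that of UD cells, at 12.5 and 9.37 CPM. Sp5, a transcription factor downstream of Wnt, was at 20.9 and 21.8 CPM at 24 h and had no count at 48 h, which is at least 197-fold lower when the 3 counts that a count of 0 allows are spread over both libraries. T, the defining transcription factor of the streak and nascent mesoderm, was at 55.6 and 59.8 CPM and then at 0.0654 and 0 CPM (adjusted p = 5.01e-11). T had 1 count at 48 h against 1435 at 24 h, a ratio of 1600 with a counting interval of 286 to 63100.

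Several homeobox genes of the posterior embryo followed. Cdx1 was at 20.3 and 17.4 CPM at 24 h and had no count at 48 h, at least 172-fold lower, and Nkx1-2, which marks posterior progenitors, was at 10.6 and 9.05 CPM and then without a count, at least 89.4-fold lower. Cdx2 was at 4.52 in both 24 h libraries and at 0.0654 and 0.408 CPM at 48 h (log2 -4.29 ± 0.45, adjusted p = 6.83e-07). None of these 3 genes overlapped between the times.

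Among ligands, receptors, and inhibitors of the Wnt pathway, the receptor gene Fzd10 was at 39.7 and 41.7 CPM at 24 h and at 7.45 and 6.12 CPM at 48 h (5.96-fold lower, adjusted p = 1.75e-10). Notum, a secreted enzyme that inactivates Wnt ligands, was at 19.9 and 20.4 CPM and then at 5.69 and 3.91 CPM (4.15-fold lower, adjusted p = 3.4e-06), and the ligand Wnt5b was at 4.34 and 4.3 CPM and then at 0.523 and 0.571 CPM (7.79-fold lower, adjusted p = 2.51e-06). These 3 genes were called without each library in turn. Sfrp1, Nkd1, and Wnt8a were also called lower, and Wnt7b, Fzd1, Fzd2, and Ascl2 were called higher, but each of these 7 calls was lost when at least 1 of the 4 libraries was left out. Among the higher genes, the call held without each library for Tcf7l1, a TCF factor that represses targets in the absence of beta-catenin, at 23.7 and 26.8 CPM and then 62.6 and 68.6 CPM (2.59-fold higher, adjusted p = 5.23e-07). Lef1, an activating partner of beta-catenin, was at 11.2 and 12.3 CPM and then at 5.29 and 3.83 CPM, just outside the limit (log2 -1.36 ± 0.27, adjusted p = 0.00107), and Ctnnb1, which encodes beta-catenin, was at 597 and 576 CPM and then 699 and 594 CPM (adjusted p = 0.407).

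Other streak markers were low at both times or did not pass the test. Of 19 streak genes, 10 were below 1 CPM in all 4 libraries, including Mixl1 at 0.542 and 0.729 CPM and then 0.131 and 0.408 CPM, and Aplnr had no count. Eomes, which specifies the anterior streak and early mesoderm, was at 12.7 and 12 CPM at 24 h and 9.02 and 10.6 CPM at 48 h (log2 -0.33 ± 0.21, adjusted p = 0.285). Among the 10 tested streak genes, Sp5 and T were called lower and Fgf4, which pluripotent cells also express, was called higher, from 93.2 and 93 CPM to 254 and 204 CPM.

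**Figure D2:**
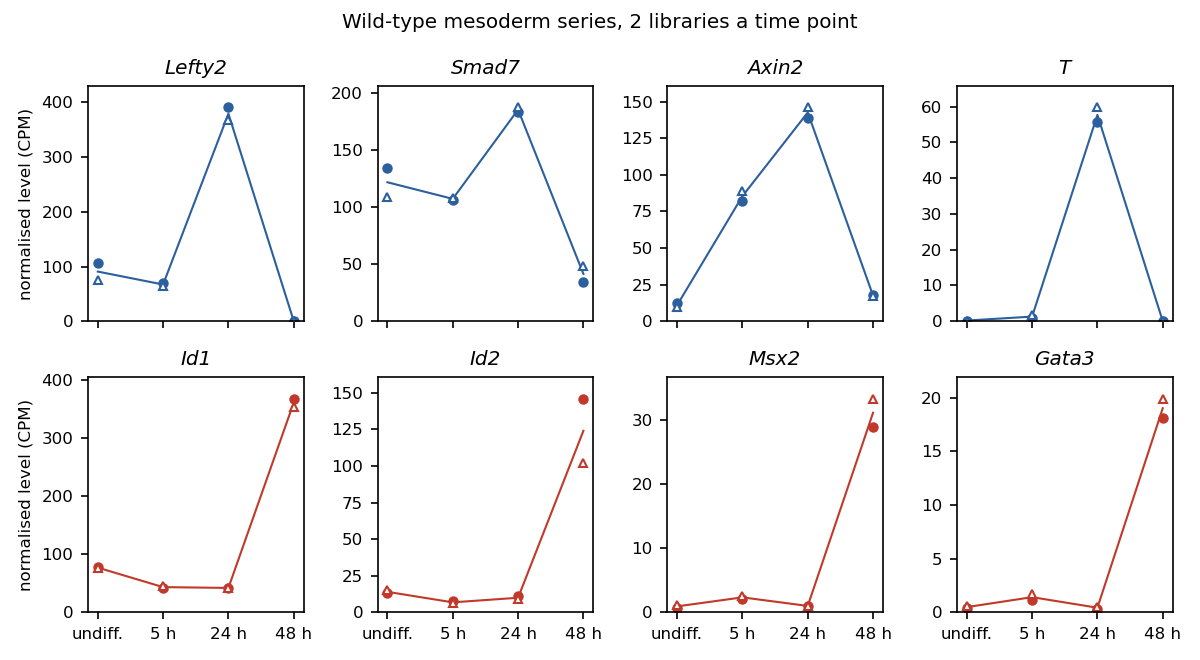
CPM (linear vertical axes) in UD cells and at 5, 24, and 48 h of WT mesoderm differentiation for Lefty2, Smad7, Axin2, and T (blue, called lower from 24 h to 48 h) and Id1, Id2, Msx2, and Gata3 (red, called higher). Filled circles are replicate 1, open triangles replicate 2, and lines join the means. T was below 2 CPM in the UD and 5 h libraries, peaked at 55.6 and 59.8 CPM at 24 h, and was at 0.0654 and 0 CPM at 48 h, while the 4 red genes stood highest at 48 h.

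Read over all 4 times, the genes that fell had reached different points by 24 h. T was at 0.197 and 0.17 CPM in UD cells and 0.903 and 1.67 CPM at 5 h, so that its high level was seen at 24 h alone. Axin2 was already at 82.2 and 88.6 CPM at 5 h. Lefty2 was present from the start, at 107 and 74.5 CPM in UD cells and 70.7 and 63.5 CPM at 5 h, and its 48 h level lay far below that of the UD cells. The earlier times are shown for orientation, and the step from 5 h to 24 h shares the 24 h libraries with the step tested here.

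BMP4 was in both media, and many BMP-responsive genes rose. Of 31 genes of the BMP pathway, 25 were tested, 10 were called higher and 3 lower, and the median log2 fold change was 1.33 against -0.01 for all genes. Id1, an inhibitor of basic helix-loop-helix factors and an immediate BMP target (chr2:152736251-152737410), was at 42.8 and 41.5 CPM at 24 h and at 368 and 354 CPM at 48 h, 8.57-fold higher (log2 3.10 ± 0.16, adjusted p = 3.82e-11). Id2 (chr12:25093799-25097140) was at 11.2 and 8.83 CPM and then at 146 and 102 CPM, 12.5-fold higher (adjusted p = 8.88e-12). Id3 was at 24.1 and 20 CPM and then at 123 and 135 CPM, 5.86-fold higher (adjusted p = 4.34e-10). The remaining family member, Id4, was at 9.94 and 9.63 CPM and then at 18.8 and 17 CPM, which did not reach the fold limit (log2 0.87 ± 0.15, adjusted p = 0.000243).

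Transcription factors downstream of BMP started from a lower level than Id1, Id2, and Id3. Msx2, Gata3, and Tfap2a rose further than each of these, and Gata2 rose less than Id2. Msx2, a homeobox factor (chr13:53466884-53473074), was at 0.994 and 1.02 CPM at 24 h and at 28.9 and 33.3 CPM at 48 h, 30.5-fold higher (log2 4.93 ± 0.27, adjusted p = 8.24e-11). Gata3 (chr2:9857078-9890034) was at 0.362 and 0.511 CPM and then at 18.1 and 19.9 CPM, 41.9-fold higher (log2 5.39 ± 0.38, adjusted p = 2.24e-09). Gata2, which acts in blood and trophoblast, was at 1.72 and 1.24 CPM and then at 15.7 and 17.7 CPM, 11.3-fold higher (adjusted p = 2.12e-06). Tfap2a, a factor of surface ectoderm, amnion, and neural crest (chr13:40715302-40738376), was at 1.54 and 2.84 CPM and then at 45.5 and 37.8 CPM, 18.6-fold higher (adjusted p = 1.49e-09). For all of these genes the 2 times were far apart in every library. Dlx5, another homeobox factor, had no count at 24 h and 1.44 and 2.85 CPM at 48 h, at least 17.1-fold higher, although its call was lost when any 1 of the 4 libraries was left out.

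Feedback inhibitors of BMP signaling were divided. Smad6, the inhibitory Smad that BMP induces, was at 1.99 and 1.9 CPM at 24 h and at 10.4 and 10.5 CPM at 48 h (5.37-fold higher, adjusted p = 8.01e-07). Bambi, a pseudoreceptor, was at 6.42 and 5.32 CPM and then at 13.5 and 15.9 CPM (2.51-fold higher, adjusted p = 4.54e-05), and was not called without 24 h replicate 2. Smad7, which both branches of the TGF-beta family induce, was called lower as given above. The cells' own ligand genes fell. Bmp4 was at 50.4 and 49.2 CPM and then at 17.6 and 15.4 CPM (3.01-fold lower, adjusted p = 3.31e-06), and Bmp7 was at 13.4 and 10.6 CPM and then at 2.81 and 4.4 CPM (3.35-fold lower, adjusted p = 4.07e-05), a call lost without 24 h replicate 1 or 48 h replicate 1. Smad1 (32.9 and 35.2 CPM, then 25.6 and 41.9 CPM) and Smad5 (40.4 and 43 CPM, then 39.9 and 44.8 CPM), which transduce the signal, overlapped between the times.

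The label of the 48 h cells was checked against markers of lateral plate and cardiac mesoderm, and most of these markers were near the limit of detection. Of 26 markers, 15 were below 1 CPM in all 4 libraries, among them Hand2, Foxf1, Kdr, Prrx1, and Nkx2-5, and Wnt2 and Osr1 had no count. Their summed level went from 339 to 352 CPM at 24 h down to 204 to 238 CPM at 48 h, most of it Tbx3, which naive ESCs also express, at 270 and 261 CPM and then 151 and 182 CPM. Hand1, which marks lateral and extraembryonic mesoderm and trophoblast (chr11:57828705-57832818), was the clearest exception, at 0.362 and 0.0729 CPM at 24 h and 4.51 and 5.87 CPM at 48 h (24.2-fold higher, adjusted p = 2.02e-06). Tbx20, a cardiac factor, was at 1.99 and 1.53 CPM and then at 5.82 and 7.42 CPM (3.76-fold higher, adjusted p = 1.18e-05), a call lost without 24 h replicate 2. Of the 16 tested markers, these 2 genes were called higher and Bmp4 lower, and the median log2 fold change was -0.02. The mesoderm genes Gata4 (12.7 and 8.75 CPM, then 9.8 and 10.8 CPM), Pdgfra (2.08 and 1.9 CPM, then 1.83 and 1.22 CPM), and Isl1 (1.27 and 1.24 CPM, then 0.915 and 1.47 CPM) did not pass the test. The libraries are therefore called by their medium and time, and no cell type name is given to them.

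Markers of paraxial and intermediate mesoderm were also mostly low, with 10 of 16 below 1 CPM in all 4 libraries. Lfng, a Notch modifier, was at 0.904 and 0.948 CPM and then at 8.1 and 10.2 CPM (9.73-fold higher, adjusted p = 2.47e-08), and the Notch ligand Dll1 was also called higher, though not without either 24 h library or without 48 h replicate 2. Among 20 endothelial and blood markers, 13 were tested, with Gata2 called higher and Lmo2 lower, and Lmo2 was not called when any 1 library was left out. Of 18 definitive endoderm markers, 14 were tested and 0 were called by edgeR or by DESeq2, with 4 at an unadjusted p under 0.05, and 1 was called without 48 h replicate 1. With 4.16% of all genes called, a list of this size need not hold any.

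Most tested markers of surface ectoderm and trophoblast rose. Of 19 such genes, 16 were tested, 11 were called higher and 1 (Cdx2) lower, and the median log2 fold change was 2.17. Their summed level was 79.5 to 80.4 CPM at 24 h and 265 to 338 CPM at 48 h. Trp63, Krt5, Krt7, Krt8, and Krt14 belong to the list and were not among the called genes. Of the list, 3 genes were not tested, and 3 were below 1 CPM in all 4 libraries. Grhl2, a factor of epithelial identity, was at 7.14 and 6.78 CPM at 24 h and at 46.9 and 35.4 CPM at 48 h (5.92-fold higher, adjusted p = 8.24e-11). Tfap2c, which acts in trophoblast, surface ectoderm, and germ cells, was at 6.87 and 8.32 CPM and then at 33.1 and 46.7 CPM (5.21-fold higher, adjusted p = 5.44e-08). The simple-epithelium keratin Krt19 was at 1.9 and 1.82 CPM and then at 8.56 and 18.3 CPM (7.12-fold higher, adjusted p = 5.26e-06), and Krt18 was at 9.94 and 7.8 CPM and then at 21.5 and 47.5 CPM (3.88-fold higher, adjusted p = 1.98e-05). Both keratins were more than 2-fold higher in 48 h replicate 2 than in replicate 1, yet no 48 h value reached down to a 24 h value. Krt18 was not called without 24 h replicate 2.

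Gata2, Gata3, Tfap2a, and Hand1, given above, belong to the same list. Grhl3 was called higher at 7.95 and 9.7 CPM and then 21 and 31.3 CPM, and Dlx3 had 3 counts at 24 h and 109 at 48 h, a ratio of 32.7 with a counting interval of 10.9 to 161. The trophoblast stem cell factors did not follow. Elf5 was at 1.54 and 1.24 CPM and then at 1.7 and 1.39 CPM, Eomes did not pass the test, and Cdx2 fell. Of 12 markers of extraembryonic mesoderm and amnion, 11 were tested and 6 were called, all higher, with a median of 1.86. These 6 genes (Dlx5, Msx2, Tfap2a, Tfap2c, Krt18, and Igfbp3) are mostly those already named, and 3 genes of the list were called without 24 h replicate 2. Dlx3 and Igfbp3 were not called without either 24 h library or without 48 h replicate 2.

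Called genes of epithelial and mesenchymal state moved in opposite directions. Of 22 genes of the epithelial-mesenchymal transition, 21 were tested, 4 were called higher and 4 lower. The higher genes were epithelial ones. Esrp1, a splicing regulator of epithelia, was at 3.98 and 3.5 CPM at 24 h and at 26.9 and 28.1 CPM at 48 h (7.37-fold higher, adjusted p = 7.67e-12). The tight junction genes Cldn6 (16.4 and 12.5 CPM, then 64.9 and 57.2 CPM), Cldn4 (32.7 and 30.3 CPM, then 92.5 and 123 CPM), and Cldn7 (2.98 and 2.55 CPM, then 8.3 and 13.9 CPM) rose 4.25-, 3.42-, and 3.98-fold. Cdh1, which encodes E-cadherin, was at 287 and 292 CPM and then at 528 and 587 CPM, just under the fold limit (log2 0.95 ± 0.13, adjusted p = 2.23e-05).

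The lower genes were mesenchymal. Vim, the intermediate filament of mesenchyme, was at 96.9 and 95.3 CPM at 24 h and at 9.02 and 13.8 CPM at 48 h (8.5-fold lower, log2 -3.09 ± 0.24, adjusted p = 8.95e-09). Fn1, fibronectin, was at 1060 and 1130 CPM and then at 370 and 495 CPM (2.54-fold lower, adjusted p = 2.46e-06), and Zeb1, a repressor of epithelial genes, was at 24.2 and 26 CPM and then at 7.78 and 8.4 CPM (3.11-fold lower, adjusted p = 5.22e-08). Cdh2, N-cadherin, was at 9.22 and 10.4 CPM and then at 1.7 and 4 CPM, and was not called without 24 h replicate 2 or 48 h replicate 1. All 8 called genes of this list were separate between the times, as was every called gene.

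Core pluripotency factors stayed near their 24 h level while many naive genes fell. Pou5f1 (Oct4) was at 717 and 681 CPM at 24 h and 557 and 635 CPM at 48 h (log2 -0.23 ± 0.15, adjusted p = 0.326). Nanog was at 233 and 213 CPM and then at 246 and 189 CPM (log2 -0.04 ± 0.12, adjusted p = 0.87), and Sox2 was at 228 and 214 CPM and then at 196 and 157 CPM (log2 -0.32 ± 0.13, adjusted p = 0.0924). Of 13 core genes, Tcf7l1 alone was called. Nanog overlapped between the times, and Pou5f1 and Sox2 lay lower at 48 h by less than the fold limit.

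All 20 naive pluripotency genes were tested, 7 were called lower and 2 higher, with a median log2 fold change of -0.56, and their summed level went from 4240 to 4400 CPM down to 2490 to 2630 CPM. Esrrb, a nuclear receptor of the naive network, was at 507 and 499 CPM and then at 176 and 215 CPM (2.58-fold lower, adjusted p = 5.47e-06). Tfcp2l1 was at 658 and 665 CPM and then at 225 and 260 CPM (2.73-fold lower, adjusted p = 1.85e-06), and the threonine-metabolizing enzyme gene Tdh was at 761 and 744 CPM and then at 268 and 215 CPM (3.11-fold lower, adjusted p = 1.38e-06). Tcl1, an Akt coactivator, fell 5.36-fold, from 65.1 and 58.6 CPM to 14.5 and 8.23 CPM, and Nr0b1 fell 3.31-fold, from 52.3 and 46.7 CPM to 15.4 and 14.5 CPM. Mylpf and Nr5a2 were also called lower, but neither without 24 h replicate 2 or without 48 h replicate 2, and Mylpf not without 48 h replicate 1. Fbxo15 and Dppa3 went the other way. Fbxo15 rose from 33.5 and 32.8 CPM to 129 and 110 CPM, which is close to its UD level of 116 and 129 CPM, and Dppa3 rose from 0.271 and 0.656 CPM to 4.71 and 3.26 CPM. Klf2, Klf4, Klf5, and Zfp42 did not pass both limits, with log2 fold changes of -0.75, -0.68, -0.44, and -0.31.

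Genes that rise in the formative or primed epiblast were divided. Of 20 such genes, 19 were tested, 5 were called higher and 4 lower. Otx2, a transcription factor of the formative state and of the anterior nervous system, was at 5.88 and 5.4 CPM at 24 h and at 63.3 and 43.4 CPM at 48 h (9.49-fold higher, log2 3.25 ± 0.23, adjusted p = 2.26e-09). Pou3f1 (Oct6) was at 1.9 and 1.24 CPM and then at 8.56 and 8.32 CPM (5.43-fold higher, adjusted p = 3.24e-06), and Dnmt3b, a de novo DNA methyltransferase, was at 56.7 and 60.3 CPM and then at 169 and 153 CPM (2.75-fold higher, adjusted p = 1.19e-08). Zic2 and Sox11 were the other 2 higher genes, with 4.06- and 3.17-fold. The lower genes were Lefty2, Nodal, Wnt8a, and Etv4, of which the first 3 are targets or ligands of the pathways above. Etv4, an ETS factor downstream of FGF, was at 119 and 122 CPM and then at 15.3 and 30.8 CPM (5.27-fold lower, adjusted p = 1.83e-08). Fgf5, the standard marker of the primed epiblast, stayed below 1 CPM in all 4 libraries.

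Some genes downstream of LIF and STAT3 fell as well. Of 12 tested, 4 were called, all lower. Gbx2, a homeobox factor that STAT3 induces in ESCs, was at 18.2 and 22.7 CPM at 24 h and at 0.784 and 1.3 CPM at 48 h (19.9-fold lower, adjusted p = 1.49e-09). The kinase gene Pim1 was at 56 and 50.3 CPM and then at 8.69 and 10.3 CPM (5.62-fold lower, adjusted p = 2.09e-10). Socs3, the feedback inhibitor of the pathway, had gone from 160 and 128 CPM in UD cells to 12.3 CPM in both 24 h libraries, and was at 4.44 and 6.52 CPM at 48 h, a call that was lost without either 24 h library or without 48 h replicate 1.

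**Figure D3:**
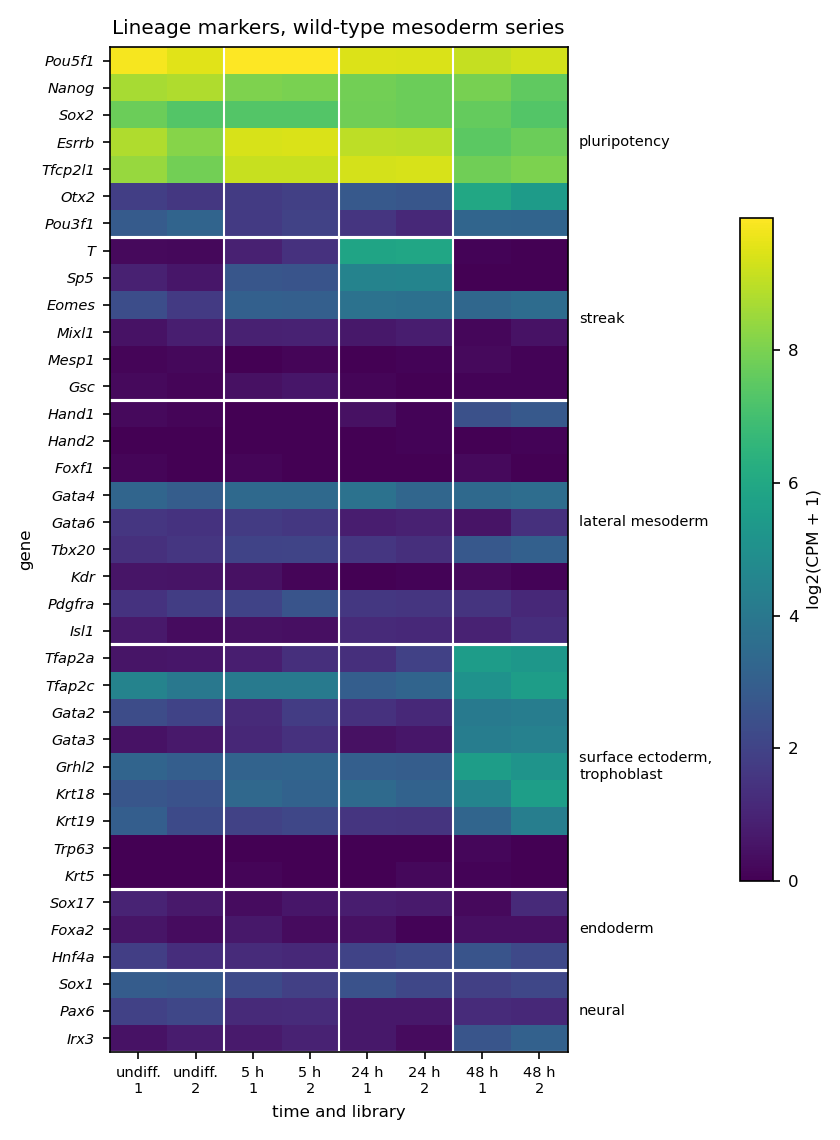
Heatmap of log2(CPM + 1) for 37 lineage markers (rows) in the 8 WT mesoderm libraries (columns: UD, 5 h, 24 h, and 48 h, replicates side by side). Pluripotency genes such as Pou5f1, Nanog, and Sox2 stay on the bright, high side of the color scale in all columns, T is bright in the 24 h columns alone, most surface ectoderm markers brighten at 48 h, and most lateral mesoderm markers stay dark (low) throughout.

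Among other signaling pathways, 2 FGF receptors and the ligand Fgf4 rose. Of 28 FGF and ERK genes, 27 were tested, 4 were called higher (Fgf4, Fgfr2, Fgfr3, and Dusp5) and 2 lower (Etv4 and Myc). The receptor gene Fgfr2 was at 0.723 and 0.438 CPM at 24 h and at 4.25 and 3.75 CPM at 48 h (6.96-fold higher, adjusted p = 5.44e-07), and Myc was at 28.2 and 29.1 CPM and then at 7.06 and 8.64 CPM (3.67-fold lower, adjusted p = 2.07e-06). The feedback inhibitors Spry2 (167 and 159 CPM, then 76.1 and 87.4 CPM), Spry4 (201 and 199 CPM, then 102 and 106 CPM), and Dusp6 (90.9 and 87.8 CPM, then 44.3 and 54.8 CPM) were separate between the times but had log2 fold changes of -0.99, -0.94, and -0.85, under the fold limit. The second medium lacked FGF2, Activin A, and CHIR99021 and held A-83-01, so their parts cannot be told apart. The cause of these lower levels was not tested. Fgfr3 was not called without 24 h replicate 1 or 48 h replicate 2, and Dusp5 was not called without 24 h replicate 1.

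In the Notch pathway, 14 of 17 genes were tested, with Lfng and Dll1 higher and the ligand Jag1 and the receptor Notch4 lower. Jag1 was at 32.7 and 31.9 CPM and then at 6.93 and 6.69 CPM (4.74-fold lower, adjusted p = 1.49e-10), and Notch4 was at 20.2 and 19.2 CPM and then at 3.53 and 1.88 CPM (7.11-fold lower, adjusted p = 6.27e-08). Of 10 Hedgehog genes, 9 were tested and 2 were called lower. Gli1, a target and effector of Hedgehog, was at 28.9 and 27.3 CPM and then at 12.9 and 10.7 CPM (2.37-fold lower, adjusted p = 8.56e-07), and Gli2, at 50 and 54.6 CPM and then 25.5 and 24.4 CPM, kept its call without 24 h replicate 1 but not without any other library. In retinoic acid handling, the binding protein gene Crabp2 rose from 0.362 and 0.365 CPM to 5.23 and 3.59 CPM (11.9-fold higher, adjusted p = 8.62e-07). Aldh1a2, which makes retinoic acid, had 62 counts at 24 h and 3 at 48 h, a ratio of 23 with a counting interval of 7.51 to 115, and was not called without 48 h replicate 1.

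Neural and visceral endoderm markers were checked as other cell types that the wells could hold. Of 21 neural genes, 16 were tested, 5 were called higher (Irx3, Otx2, Nes, Zic2, and Zic5) and Tubb3 lower, and the summed level was 318 to 342 CPM at 24 h and 348 to 388 CPM at 48 h. The defining neural factors Sox1 (4.7 and 3.43 CPM, then 2.68 and 3.34 CPM) and Pax6 (0.542 and 0.584 CPM, then 1.37 and 1.22 CPM) were not called. Nes was not called without 24 h replicate 2 or 48 h replicate 2, and Tubb3 not without 24 h replicate 1 or 48 h replicate 1. Of 18 visceral and parietal endoderm genes, 16 were tested and 4 were called, all higher. The other 12 tested genes were not called, and 4 of them had a negative log2 fold change. Gata4 was at 12.7 and 8.75 CPM and then at 9.8 and 10.8 CPM. Amn was at 0.452 and 0.292 CPM and then at 0.719 and 0.408 CPM, and Lama1, given below, was lower at 48 h. Cubn, an endocytic receptor, was at 2.17 and 2.33 CPM and then at 17 and 16.9 CPM (7.47-fold higher, adjusted p = 3.34e-08), its partner Dab2 was at 1.36 and 1.39 CPM and then at 9.02 and 7.01 CPM (5.84-fold higher, adjusted p = 3.55e-08), and the matrix genes Sparc and Col4a1 rose 3.68- and 2.27-fold, Col4a1 not without 24 h replicate 2. The summed level of that list was 717 to 723 CPM at 24 h and 753 to 897 CPM at 48 h. The part of these cells in the results above was not tested.

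The remaining genes of the 15 most changed in each direction belonged to none of the lists, with the exceptions already given and Igf2. Cxcl12, a chemokine, was at 0.633 and 0.802 CPM at 24 h and at 22.6 and 23.9 CPM at 48 h (31.6-fold higher, adjusted p = 4.83e-09). Coch, a secreted matrix protein, was at 2.26 and 1.9 CPM and then at 63.3 and 39.5 CPM (24.8-fold higher, adjusted p = 1.07e-10), and Tagln, an actin-binding protein of smooth muscle, was at 0.814 and 0.656 CPM and then at 10.6 and 14.7 CPM (17.1-fold higher, adjusted p = 4.73e-09). Car4, Stk32a, Calcoco2, Eprn, and Lrrc15 completed the higher group with log2 fold changes from 3.57 (Lrrc15) to 4.87 (Car4).

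Among the lower genes, Ntn1, which encodes the guidance cue netrin-1, was at 142 and 145 CPM at 24 h and at 8.37 and 9.29 CPM at 48 h (16.3-fold lower, log2 -4.02 ± 0.18, adjusted p = 7.67e-12). Trpm1, a cation channel, was at 44.9 and 39.4 CPM and then at 0.85 and 1.14 CPM (42.4-fold lower, adjusted p = 1.49e-09), and had been at 5.15 and 4.39 CPM at 5 h. Kirrel2 and Nphs1, which encode related cell adhesion proteins and are neighbors on chromosome 7, fell together. Kirrel2 went from 10.3 and 11.4 CPM to 0.0654 and 0.245 CPM and Nphs1 from 25 and 32.2 CPM to 1.7 and 2.85 CPM. Gad1 had 1 count at 48 h against 142 at 24 h, a ratio of 158 with a counting interval of 27.9 to 6280, and Nt5e, Cacng5, and Dmgdh fell by 4.03, 3.95, and 3.65 on the log2 scale.

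The same 24 h step was taken by WT cells in the endoderm series, which received Activin A, CHIR99021, and FGF2 and then Activin A with DM3189, an inhibitor of BMP type I receptors. The difference between the 2 changes was tested as an interaction in a joint fit of all 48 libraries, and the CPM values of both series given beside it are scaled in that fit. Of 19601 genes, 257 (1.31%) differed, 142 (0.724%) with a higher and 115 (0.587%) with a lower change in mesoderm. Leaving out 24 h replicate 1, 24 h replicate 2, or 48 h replicate 1 of mesoderm gave 144, 142, and 146 genes. Leaving out 24 h replicate 1, 24 h replicate 2, or 48 h replicate 2 of endoderm gave 167, 137, and 166. The differences of single genes named here were called without each of the 8 libraries in turn, unless an exception is given.

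Lefty2 and Smad7 fell further in mesoderm than in endoderm. Lefty2 was at 396 and 374 CPM and then 0.0662 and 0.329 CPM in mesoderm, against 443 and 486 CPM and then 358 and 267 CPM in endoderm. The log2 changes differed by -10.38 ± 0.53 (adjusted p = 2.15e-15). Smad7 was at 150 and 144 CPM and then at 106 and 88.3 CPM in endoderm (difference -1.57 ± 0.18, adjusted p = 2.39e-07). Kirrel2 and Nphs1 also held their level in endoderm, Kirrel2 at 15.5 and 13.9 CPM and then 18.6 and 15.2 CPM. In all, 6 of 21 tested Nodal and Activin genes differed, and the difference of Inhbb, 1 of the 6, was lost without any of 6 libraries.

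Id1 and Id3 moved in opposite directions in the 2 series. Id1 was at 10.6 and 9.28 CPM and then at 5.12 and 1.66 CPM in endoderm, against the rise in mesoderm (difference 4.62 ± 0.34, adjusted p = 3.36e-11), and Id3 was at 10.7 and 10.8 CPM and then at 1.54 and 1.57 CPM (difference 5.33 ± 0.27, adjusted p = 2.15e-15). Msx2 was below 1 CPM in all 4 endoderm libraries (difference 6.55 ± 0.68, adjusted p = 4.41e-08). Of 26 BMP genes, 9 differed, and of 17 surface ectoderm and trophoblast genes, Tfap2a, Tfap2c, Gata3, and Grhl3 differed. The differences of Gata3, Grhl3, and Smad6 were lost without most of the 8 libraries. T and Axin2 fell in both series. The second medium of each series lacked both CHIR99021 and FGF2, and the cause of the fall was not tested. In endoderm T was at 26.5 and 21.9 CPM and then at 0 and 0.0924 CPM, and Axin2 was at 86.7 and 77.1 CPM and then at 8.44 and 5.17 CPM (difference 0.54 ± 0.24, adjusted p = 0.189).

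Nanog, Klf4, and Tbx3 fell past both limits in endoderm and not in mesoderm. Nanog was at 221 and 233 CPM and then at 106 and 94 CPM in endoderm, while its mesoderm values overlapped between the times (difference 1.14 ± 0.16, adjusted p = 1.13e-05, not called without 48 h replicate 1 of mesoderm). Klf4 went from 67.6 and 60.1 CPM to 8.36 and 13.8 CPM in endoderm (difference 1.85 ± 0.26, adjusted p = 1.13e-05) and Tbx3 from 173 and 164 CPM to 20.1 and 29.6 CPM (difference 2.09 ± 0.26, adjusted p = 1.73e-06). In contrast, Nr0b1 fell in mesoderm and was at 50.5 and 49.8 CPM and then 37.7 and 38.6 CPM in endoderm (difference -1.33 ± 0.20, adjusted p = 3.31e-05). Dnmt3b rose further in endoderm, from 76.8 and 77.7 CPM to 623 and 474 CPM (difference -1.37 ± 0.19, adjusted p = 1.25e-05). Of 20 naive genes, 6 differed, with Nr0b1 alone falling further in mesoderm.

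**Figure D4:**
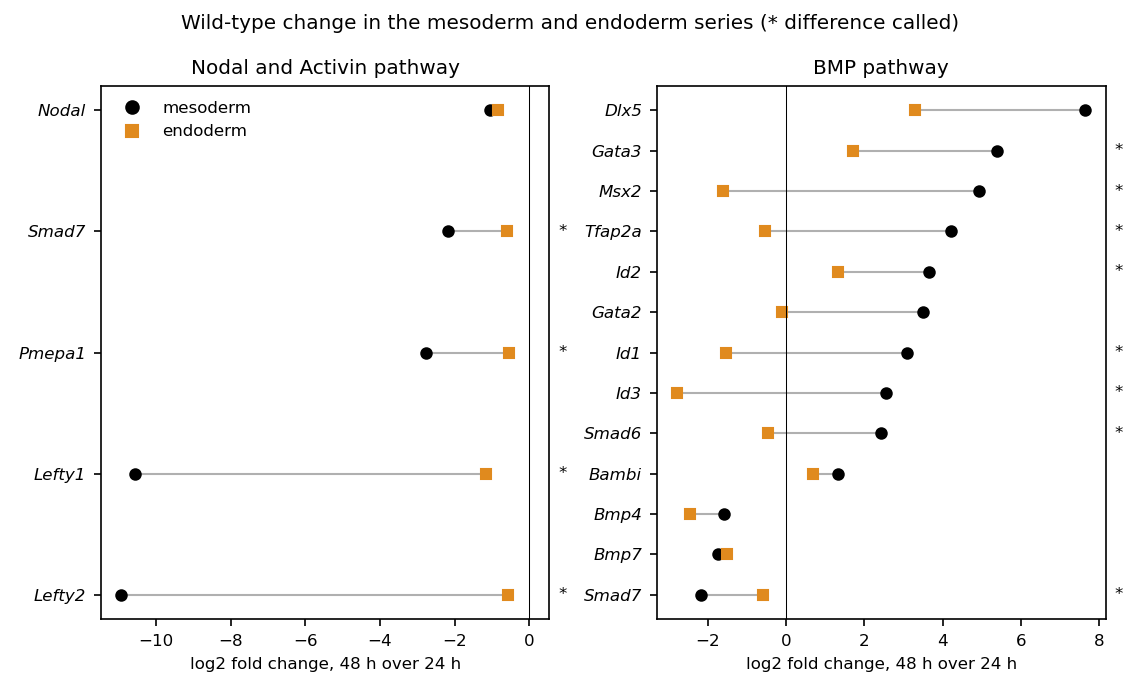
Log2 fold change (48 h over 24 h, horizontal axis) in WT mesoderm (black circles) and WT endoderm (orange squares) for the Nodal and Activin and the BMP genes called in mesoderm and named in the text (rows). Asterisks mark genes whose difference between the series passed both limits. Lefty2 and Lefty1 are near -11 in mesoderm and above -2 in endoderm (Lefty1 had 1 count at 48 h in mesoderm, and Dlx5 none at 24 h, so their fitted values are imprecise), and Id1, Id3, and Msx2 lie on opposite sides of 0.

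Within the mesoderm series, the WT step was compared with that of Mtf2 null cells, which lack a subunit of the PRC2.1 complex. Mtf2 RNA was at 34.4, 34.0, 30.2, and 33.7 CPM in the 4 null libraries of 24 h and 48 h, against 206 to 292 CPM in WT. The methods give the null cells a matched parent line other than E14. If the WT cells are E14 as titled, genotype and line cannot be told apart. Of 18361 genes, 87 (0.474%) had a different log2 change, 22 (0.12%) higher and 65 (0.354%) lower in WT. That number was 24 without WT 24 h replicate 1, 23 without WT 24 h replicate 2, and 35 without WT 48 h replicate 1. The contrasts with endoderm, Mtf2 null, and Jarid2 null share the WT libraries, so they are not independent of each other.

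Gata4, Pdgfra, and Hnf4a were not called in WT and rose in the Mtf2 null cells. Gata4, at 12.7, 8.75, 9.8, and 10.8 CPM in WT, was at 18.8 and 20.2 CPM and then at 77.2 and 72.3 CPM in the null (difference -1.99 ± 0.26, adjusted p = 0.000179). Pdgfra was at 10.2 and 9.62 CPM and then at 46.9 and 46.5 CPM in the null (difference -2.59 ± 0.39, adjusted p = 0.000485), and Hnf4a, an endoderm factor, went from 0.76 and 1.09 CPM to 13 and 16.2 CPM (difference -3.57 ± 0.50, adjusted p = 0.000281). Lama1, Lamb1, Lamc1, and Col4a2, which form basement membrane, also rose in the null, Lama1 from 225 and 246 CPM to 1020 and 1030 CPM, where WT went from 124 and 126 CPM to 59.4 and 70.3 CPM. Of 16 visceral and parietal endoderm genes, 6 differed. The differences of Lama1 and Lamc1 were called without each of the 4 WT libraries, whereas that of Gata4 was lost without 24 h replicate 1 or 48 h replicate 1, that of Hnf4a was lost without 3 of them, Col4a2 likewise, and those of Pdgfra and Lamb1 without any 1.

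Some epithelial genes changed more in WT and began lower there. Grhl2 was at 60.1 and 61.5 CPM at 24 h and at 89.3 and 80.5 CPM at 48 h in the null (difference 2.08 ± 0.18, adjusted p = 1.04e-06), above the WT values at both times. Esrp1 (39.8 and 37.5 CPM, then 65.1 and 69.3 CPM) and Cldn7 (26.9 and 33 CPM, then 31.1 and 24.9 CPM) showed the same order, with differences of 2.08 and 2.10. Grhl2 and Esrp1 kept this call without each WT library, and Cldn7 lost it without 3 of the 4. Msx2 behaved otherwise, with 2.38 and 2.76 CPM and then 13.4 and 10.5 CPM in the null, below the WT values at 48 h (difference 2.72 ± 0.39, adjusted p = 0.000291, lost without 3 of the 4 WT libraries).

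The change in WT was also set against that of the libraries labelled Jarid2 null. Jarid2 RNA was at 189 and 220 CPM at 24 h and at 397 and 448 CPM at 48 h in them, against 318 to 407 CPM in WT, so the gene-level count was not lower at 48 h. Whether reads of an undeleted part of the gene remain cannot be read from a count per gene. These cells, too, have a matched parent line other than E14 in the methods, so the same limit on genotype and line holds here. Of 18361 genes, 52 (0.283%) differed from WT in their change, 17 (0.0926%) higher and 35 (0.191%) lower in WT. By edgeR the number was 0 without WT 24 h replicate 1 or replicate 2 (3828 and 3778 genes at an unadjusted p under 0.05), 142 without WT 48 h replicate 1, and 3 without WT 48 h replicate 2. DESeq2 called 232 with all libraries. Each difference named next was lost without at least 3 of the 4 WT libraries. Igf2 rose further in the libraries labelled Jarid2 null, from 2.87 and 5.24 CPM to 293 and 283 CPM (difference -2.14 ± 0.32, adjusted p = 0.000867), as did Id3, from 8.47 and 12.6 CPM to 157 and 188 CPM (difference -1.49 ± 0.23, adjusted p = 0.000894). Egr1 fell there from 29.1 and 21.1 CPM to 5.31 and 5.47 CPM, while WT was at 3.98 and 4.23 CPM and then 4.05 and 9.21 CPM (difference 2.89 ± 0.40, adjusted p = 0.000463).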

How the data were processed

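Bulk RNA of the directed mesoderm and endoderm series was sequenced after ribosomal RNA depletion on an Illumina NextSeq with 75-base reads. The deposited values are estimated counts per gene, which per the labels and the study's methods the authors made with Salmon, without normalization. The submitters' processing notes also name Bowtie2, HTSeq, CASAVA, and DESeq2, and the builds GRCm38 and mm10. The estimated counts were rounded to whole numbers. Symbols and coordinates were taken from the GRCm38 annotation, which matched 53668 of the 53697 genes in the mesoderm table.

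The 24 mesoderm libraries were fitted with edgeR 4.0.16 in R 4.3.3 (TMM factors from 0.833 to 1.16, filterByExpr, quasi-likelihood F test), with 1 mean for each of 12 genotype and time groups. Both series were joined over their 53668 shared genes for the contrast with endoderm. Calls required p-values, adjusted after Benjamini and Hochberg, under 0.001 together with at least a 2-fold change. Differences between changes were interaction contrasts at the same limits. The code was tested on simulated counts. Where a group had 3 counts or fewer, the ratio of summed counts and its exact 95% interval were used in place of the fitted fold for the WT change, and where it had none, a floor of 3 counts over both libraries. These intervals cover counting error only. Differences between changes are fitted values throughout, and low counts behind them are given for some genes only.

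The genes named are those of the lists, called or not, and the 15 most changed in each direction among called genes whose libraries did not overlap and whose higher mean was at least 5 CPM. For each difference, the 3 most different genes in each direction with at least 5 CPM were added. Of 770 list entries, 767 were matched. 1 item of the lists is counted but not reported here. Members and lists were chosen with earlier results of these data known. Alternatives were other scaling, DESeq2 1.42.0, no filter on low counts, the 4 WT libraries alone, a replicate block, other limits, leaving out each library, and, chosen after seeing the data, leaving out 5 abundant noncoding genes.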

Additional observations from a re-analysis of the deposited data

Results flagged for a closer look

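Counts of genes whose change from 24 h to 48 h in WT mesoderm differed from that of another group are listed here because the difference itself was tested. They were 257 against WT endoderm, 87 against Mtf2 null mesoderm, and 52 against the libraries labelled Jarid2 null. Against endoderm, the log2 changes of Msx2 (6.55), Id3 (5.33), and Lrrc15 (5.24), a membrane protein of mesenchymal cells, were furthest above, and those of Lefty2 (-10.38), Lefty1 (-9.45), and Kirrel2 (-6.34) furthest below. All 6 were called without each of the 8 libraries in turn. Lefty1 had 1 count in both mesoderm 48 h libraries together, so its fitted value is imprecise and its rank is not read. Low counts also lay behind Lefty2 (5) and Kirrel2 (4) at mesoderm 48 h, and Msx2 (4) and Lrrc15 (6) at endoderm 48 h. The sizes of these differences are therefore imprecise too. Against Mtf2 null, the differences were 3.97 for Gm48128, 3.29 for Nod1, an intracellular sensor of bacterial peptidoglycan, and 3.1 for Coch, and -3.96 for Chst15, -3.69 for Ankrd33b, and -3.57 for Hnf4a. Chst15 and Ankrd33b were called without each of the 4 WT libraries, Coch was not without 24 h replicate 2, Hnf4a was called only without 48 h replicate 1, and Gm48128 and Nod1 were lost without any 1. Nod1 had 3 counts at 24 h and 34 at 48 h in WT, against 571 and 582 in the Mtf2 null libraries, so that it passed the minimum of 5 CPM through the null group alone and its fitted value is imprecise. Against the libraries labelled Jarid2 null, they were 2.89 for Egr1, 2.46 for the meiotic cohesin gene Smc1b, and 2.39 for Acot2, and -3.31 for Steap3, -2.93 for Ehd2, and -2.73 for S100a11. All 6 lost their call without 24 h replicate 1, 24 h replicate 2, or 48 h replicate 2 of WT. Hnf4a passed the minimum of 5 CPM through the Mtf2 null libraries alone, and Ehd2 through those labelled Jarid2 null alone. The 3 contrasts share the WT mesoderm libraries.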

How the results depend on the processing

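No called gene changed sign under any alternative. The 763 genes were 765 with RLE size factors, 769 with upper quartile scaling, 734 with DESeq2, and 769 without 5 abundant noncoding genes. Without a filter on low counts, 1117 genes were called, 703 of them higher. With the 4 WT libraries alone 174 were called (102 higher, 72 lower), and the cause of this lower number was not tested. At an adjusted p under 0.05 there were 1496 (950 higher, 546 lower), and with no fold limit 1200 (618 lower). Leaving out 1 library gave 437 to 628 genes: 481 without 24 h replicate 1, 437 without 24 h replicate 2, 583 without 48 h replicate 1, and 628 without 48 h replicate 2, with 216 to 382 of them higher and 201 to 298 lower. The cause was not tested. Some genes that were not called had changes near 0 whose sign varied. With upper quartile scaling the log2 change was 0.04 for Gata4, 0.06 for Nanog, 0.07 for Smad1, and 0 for Isl1 and Smad4, with the 4 WT libraries alone 0.01 for Nanog and 0.03 for Smad1, and without the 5 abundant genes 0.01 for Smad1. Leaving out 1 library gave -0.02 to 1.16 for Egr1, -0.31 to 0.22 for Gata4, -0.45 to 0.22 for Isl1, -0.25 to 0.26 for Mtf2, -0.24 to 0.14 for Nanog, -0.41 to 0.29 for Smad1, -0.06 to 0.1 for Smad5, and -0.63 to 0.17 for Tdgf1.

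Against Mtf2 null, the 87 genes became 143 with DESeq2, 444 without the filter, 402 at an adjusted p under 0.05, and 23 to 64 without 1 WT library. Against the libraries labelled Jarid2 null, the 52 became 232, 550, 699, and 0 to 142 in the same order. Against endoderm, the 257 became 493 without the filter, 712 at an adjusted p under 0.05, and 137 to 292 without 1 library. With a replicate block the counts were 677 for the WT step, of which 674 were shared with the fit without it, 50 against Mtf2 null, and 9 against the libraries labelled Jarid2 null. Replicate numbers did not pair the libraries: the replicate differences of WT 24 h and 48 h correlated at 0.028 across genes, and those of all pairs of groups at -0.26 to 0.33. At these depths a gene without counts in both libraries of a time could lie at up to 0.121 CPM (24 h) or 0.109 CPM (48 h).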

Other observations

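Several imprinted genes rose in WT cells between 24 h and 48 h. Of 18 tested, 8 were called, all higher, with a median log2 fold change of 1.53 against -0.01 for all genes, and their summed level went from 1320 to 1340 CPM up to 2410 to 2520 CPM. Igf2, a fetal growth factor (chr7:142650766-142666816), was at 4.79 and 4.67 CPM at 24 h and at 68.1 and 87.4 CPM at 48 h (16.4-fold higher, log2 4.04 ± 0.21, adjusted p = 5.01e-11, edgeR). Igf2 stayed low in WT endoderm, at 4.69 and 5.91 CPM at 48 h on the scale of the joint fit, and the difference between the series was called without each of the 8 libraries in turn. Meg3, Rian, and Mirg, noncoding RNAs of 1 maternally expressed cluster, were called together. Rian was at 102 and 96.9 CPM and then at 597 and 461 CPM, Meg3 at 51.6 and 64 CPM and then 253 and 243 CPM, and Mirg at 17 and 18.1 CPM and then 78.8 and 69.5 CPM. Peg10, a retrotransposon-derived placental gene, was at 130 and 133 CPM and then at 589 and 639 CPM (4.67-fold higher), Peg3 rose 2.98-fold, and Cdkn1c and Phlda2 rose 3.12- and 3.03-fold, Phlda2 not called without 24 h replicate 2. H19, the neighbor of Igf2, was at 0.542 and 0 CPM and then at 1.5 and 3.02 CPM, which did not pass (adjusted p = 0.0023).

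Of 20 G2 and M phase genes and 19 oxidative phosphorylation genes, 0 were called by edgeR or by DESeq2, with 6 and 7 at an unadjusted p under 0.05. With 4.16% of all tested genes called, lists of this size need not hold a call. The cyclin gene Ccnd2 was at 6.06 and 6.35 CPM and then at 30.6 and 39.7 CPM (5.64-fold higher, adjusted p = 4.6e-08). Myc fell while its relative Mycn rose from 25.7 and 28.1 CPM to 91 and 80.6 CPM (3.19-fold higher, adjusted p = 1.06e-08). The matrix-associated genes Ccn1 (7.5 and 8.17 CPM, then 40.1 and 57 CPM) and Ccn2 (7.41 and 8.75 CPM, then 56.1 and 55.4 CPM) rose 6.16- and 6.86-fold. The glucose transporter gene Slc2a1 had been at 522 and 435 CPM in UD cells, was at 88.2 and 80.2 CPM at 24 h, and at 248 and 264 CPM at 48 h (3.04-fold higher, adjusted p = 1.91e-09), and the lactate exporter gene Slc16a3 followed the same course. Pmaip1, an apoptosis gene that p53 induces, fell 4.31-fold, from 30.1 and 26.6 CPM to 6.21 and 6.93 CPM.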
